A study of Mus musculus with 3 samples.

Results

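The genes described here encode the machinery of mitosis and chromosome segregation. They comprise 42 genes, chosen by name for their known role, among the 17250 gene symbols of the BM transcriptome. All 42 were found by their symbol in the tables. BM cells were flushed from the long bones and pelvis of C57BL/6 mice aged 6 to 8 weeks that had received recombinant LECT2, a secreted protein, by daily injection under the skin (300 μg per kg) for 3 or 5 days, or none (0 days). mRNA was sequenced in 1 library per time point, so differences between time points have no replicate check and no p-value is given. The label of the 0-day library names no injection, so LECT2 and the handling of repeated injection cannot be told apart, and neither the labels nor the methods give the number of mice behind each library. No transgene, targeted allele or cell sort is named, so each value is a mean over the BM cells collected, which the methods call flushed BM cells and a legend BM mononuclear cells. Neutrophil transcripts were abundant in each library (S100a9 at 61729, 44195 and 14032 RPKM at 0, 3 and 5 days).

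Mitosis is driven by cyclin-dependent kinase 1 bound to A- and B-type cyclins. The nuclear envelope breaks down, condensin compacts the chromosomes, kinesin motors build a bipolar spindle, and kinetochores couple each sister chromatid to microtubules. A checkpoint holds the anaphase-promoting complex until every kinetochore is attached, after which separase cuts cohesin and the cell is cleaved by the central spindle and the contractile ring. In BM these transcripts come from dividing progenitors and precursors, and neutrophils at the end of their maturation no longer divide. Most mitotic genes are transcribed late in the cell cycle from promoters that hold a cell cycle genes homology region (CHR, the letters TTTGAA) and CCAAT boxes.

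The members were chosen for a mitotic role, so a high share with mitotic annotation was fixed by that choice and lends it no support. Of the 42 members, 34 (81.0%) carried a mitosis or cell-cycle term in the authors' Gene Ontology column, compared with 4.83% of all genes. Ect2, Hmmr, Kif23, Kif4, Mad2l1, Mki67, Prc1 and Ttk carried none.

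The promoters of the members shared the letters that mark mitotic promoters, a feature that did not enter their choice. RefSeq windows from 250 bases before to 50 bases after the gene start (GRCm38.p6) were at hand for 37 of the 42 members. TTTGAA, on either strand, was present in 29 of these 37 (78.4%), against 20.2% of all 27025 genes with a window and 14.3% of the 8816 other genes that averaged 1 RPKM or more in BM. CCAAT, on either strand, was present in 28 of 37 (75.7%), against 41.1% of all genes, and both sets of letters in 25 of 37 (67.6%), against 7.97%. TTCGAA, an alternative CHR sequence, was found in 3 members (8.11%, against 1.80%). Matches to TTTGAA and CCAAT may overlap by 1 base, and each share counts genes rather than matches. The sequences below are 6 of these promoters, written 5′ to 3′ up to the base before the gene start, with bases covered by an annotated exon left out. Capitals mark TTTGAA or its reverse complement TTCAAA and CCAAT or its reverse complement ATTGG. Mki67 (chr7:135716380-135716529, minus strand) and Top2a (chr11:99024190-99024339, minus strand) are shown as the members with the highest levels at 5 days. Cdk1 (chr10:69352939-69353062, minus strand) and Cdc20 (chr4:118437353-118437493, minus strand) are shown as the central kinase and the activator of the anaphase-promoting complex, and Kif11 (chr19:37376232-37376381, plus strand) as the principal spindle motor. Birc5 (chr11:117849087-117849236, plus strand) is shown as a member with neither motif in its window.
Mki67: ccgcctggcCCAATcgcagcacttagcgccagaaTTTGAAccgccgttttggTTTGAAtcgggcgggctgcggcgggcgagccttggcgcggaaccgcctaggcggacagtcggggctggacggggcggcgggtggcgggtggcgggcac
Top2a: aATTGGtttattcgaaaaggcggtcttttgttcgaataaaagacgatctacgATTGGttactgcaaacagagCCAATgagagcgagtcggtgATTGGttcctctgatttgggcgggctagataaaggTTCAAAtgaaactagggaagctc
Cdk1: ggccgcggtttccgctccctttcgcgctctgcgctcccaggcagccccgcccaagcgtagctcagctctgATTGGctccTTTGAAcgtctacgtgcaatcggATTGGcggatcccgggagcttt
Cdc20: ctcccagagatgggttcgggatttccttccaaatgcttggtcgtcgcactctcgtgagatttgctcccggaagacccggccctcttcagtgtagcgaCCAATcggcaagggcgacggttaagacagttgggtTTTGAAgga
Kif11: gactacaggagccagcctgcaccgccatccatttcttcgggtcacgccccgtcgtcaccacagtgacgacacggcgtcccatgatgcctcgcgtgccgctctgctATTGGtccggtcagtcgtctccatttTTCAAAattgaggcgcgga
Birc5: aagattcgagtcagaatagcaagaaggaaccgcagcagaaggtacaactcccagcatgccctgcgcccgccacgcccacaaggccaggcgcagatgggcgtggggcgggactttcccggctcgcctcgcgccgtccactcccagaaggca

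The CHR letters lay close to the gene start. With 1 window per gene (Ect2 and Prc1 have a pair of overlapping windows, of which 1 was used), 28 of 38 matches to TTTGAA (73.7%) fell within 50 bases of the start, with a median position of -1.5 bases. The 58 matches to CCAAT had a median farther upstream, at -67.5 bases, and 20 of them (34.5%) fell within 50 bases of the start. Positions in other promoters are not given here. The plot of match positions shows both distributions. The letters were also present in the window of 30 of 66 other mitotic genes (45.5%), but in 5 of 37 DNA replication genes (13.5%), beside the 14.3% of other genes at 1 RPKM or more. A match is a run of letters, and binding of a factor was not measured.

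**Figure D1:**
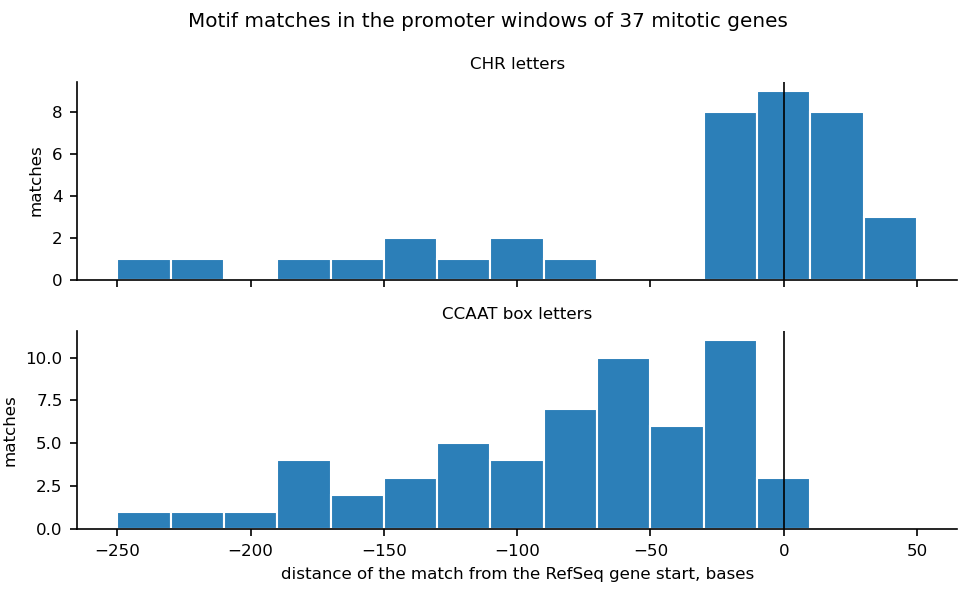
Number of matches (vertical axis) to the CHR letters (upper panel) and the CCAAT box letters (lower panel) by distance from the RefSeq gene start in bases (horizontal axis, 20-base bins), in 37 windows, 1 per member. Of the 38 CHR matches, 28 lie within 50 bases of the start. Of the 58 CCAAT matches 20 do, and their median lies farther upstream, at -67.5 bases.

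Transcripts of the members took a growing share of the reads. At 0 days they held 64462 of the 15523952 reads on genes (0.415%, 95% exact Clopper-Pearson interval 0.412 to 0.418%). The share was 0.545% at 3 days (82543 of 15146983 reads, 0.541 to 0.549%), and after 5 days it reached 0.937% (145331 of 15514673 reads, 0.932 to 0.942%). These intervals, and all others given here, cover counting error only, since reads amplified by PCR are not independent molecules and there is no replicate. Mki67 alone gave 16.4%, 21.2% and 23.5% of the members' reads in the 3 libraries, so the share rests in part on this long and abundant transcript. Per length, the median level of the members was 21.7, 29.7 and 45.7 RPKM (reads scaled to the length of the gene and to the reads on genes of the library). In bulk RNA, fewer cells of a type and less RNA per cell cannot be told apart.

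Of the 42 members, 41 averaged 1 RPKM or more, and each of these was above 1 RPKM in every library. The exception was Racgap1, which encodes a subunit of the centralspindlin complex. It is listed on 2 rows, of which the higher held 3, 8 and 18 reads at 0, 3 and 5 days (0.0629, 0.172 and 0.378 RPKM) and the other 0, 5 and 7 reads. With 3 reads or fewer at 0 days it was treated as at the floor, and it has no fold change here. Symbols with several rows were low in these tables in general, with a median of 0.341 RPKM over 232 such symbols compared with 4.35 RPKM over 17018 symbols with 1 row. Counts and medians below are over the remaining 41 genes.

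The spread of levels among members was wide. At 0 days the levels ran from 2.98 RPKM for Aspm to 88.7 RPKM for Cenpa, and at 5 days from 12.8 RPKM for Aspm to 218 RPKM for Mki67. Cenpa, Smc4, Top2a, Ccna2 and Mki67 were the 5 highest at 0 days. At 5 days Mki67, Top2a, Ccna2, Smc4 and Cenpa were the 5 highest, in this order. Spearman's rho between the levels of the 41 members at 0 and 5 days was 0.909, across genes, which are not replicates. Single members changed rank all the same, among them Spc25 from 8 to 23, Cdk1 from 13 to 25, Birc5 from 7 to 17, Plk1 from 23 to 14 and Kif11 from 15 to 6 of 41. The plot of levels shows the 3 libraries for each gene by role.

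**Figure D2:**
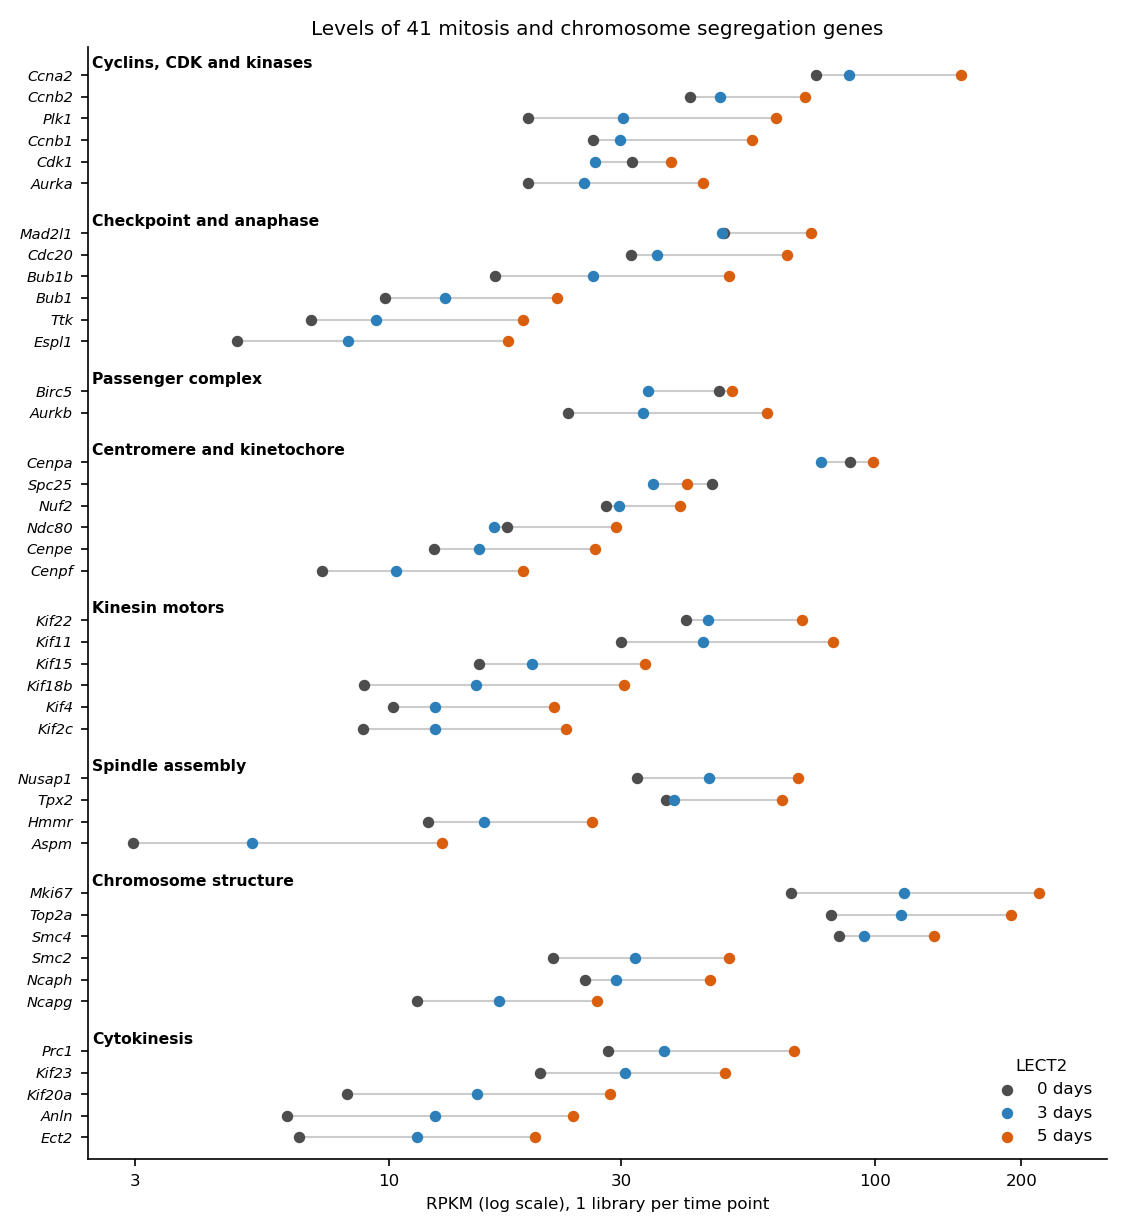
Level in RPKM (log scale) of 41 members after 0 days (grey), 3 days (blue) and 5 days (orange) of LECT2, 1 library per time point, grouped by role and ordered by mean level. The 5-day point is the rightmost for 40 members, Spc25 being the exception, and the 3-day point lies left of the 0-day point for 6.

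Differences between libraries are given as the log2 ratio of the deposited RPKM after adding 0.1 RPKM to each value. Counting intervals, and folds printed beside a log2 ratio, are without this addition. At 5 against 0 days the median over the 41 members was 1.17 (range -0.17 to 2.07, SD 0.51), compared with 0.31 over the 11144 genes that averaged 1 RPKM or more, and 40 members were higher and 1 lower. At 3 against 0 days the median was 0.39 (range -0.49 to 1.00, SD 0.34), compared with 0.10 over all genes, with 35 members higher and 6 lower. At 5 against 3 days it was 0.78 (range 0.24 to 1.28, SD 0.20), compared with 0.25 over all genes, and 41 of 41 were higher. These 3 comparisons share their libraries. The counting interval of the ratio lay above 0 for 33 members and below 0 for 4 at 3 days, and above 0 for 40 and below 0 for 1 at 5 days. Interval counts are given for the members only. Of the 11144 genes, 6425 were higher at 3 against 0 days, 7528 at 5 against 0 days and 8126 at 5 against 3 days, whatever their interval. The step from 3 to 5 days had the larger log2 ratio for 40 of 41 members as deposited, where the median of all genes was also larger at that step, for 34 with TMM and for 39 after removal of the length trend. The exceptions were Anln as deposited, Anln, Ect2, Kif20a, Kif23, Ncapg, Nusap1 and Smc2 with TMM, and Ccnb2 and Kif20a after removal of the length trend.

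Counted at a fold of 2, 28 of 41 members were higher at 5 than at 0 days, where 15.5% of the genes with at least 1 RPKM in either library passed the same fold upward. No member was 2-fold lower, where 5.91% of genes were. At 3 against 0 days only Anln passed (4.08% of genes did) and no member was 2-fold lower (2.41%). At 5 against 3 days Aspm, Espl1, Kif18b and Plk1 passed (1.95% of genes) and no member was 2-fold lower (3.45%). The count at 5 days depended on the scaling of the libraries. With TMM factors, which set the median of all genes at 5 against 0 days to 0.01 in place of 0.31, 14 members were at least 2-fold higher, beside 7.24% of genes, and the members' median was 0.86 with 37 higher and 4 lower. At 5 against 3 days Aspm alone passed with TMM, beside 0.651% of genes, and at 3 against 0 days no member did, beside 3.08%. No member was 2-fold lower with TMM in any pair of time points, where 3.16%, 9.96% and 4.84% of genes were at 3 against 0, 5 against 0 and 5 against 3 days. With median-of-ratios factors 14 members passed at 5 against 0 days, beside 7.46% of genes, 1 at 5 against 3 days, beside 0.668%, and 0 at 3 against 0 days, beside 3.12%. With scaling to the reads outside the 100 most abundant genes these counts were 18, 1 and 0, beside 9.69%, 1.1% and 3.04% of genes. A pseudocount of 1 RPKM also left 0 members at 3 against 0 days, beside 1.68% of genes. At a fold of 1.5, 34 members passed at 5 against 3 days, beside 17.3% of genes, and 9 at 3 against 0 days, beside 16.4%. Anln, Aspm, Aurkb, Bub1b, Ect2, Espl1, Kif18b, Kif20a, Plk1 and Ttk, 10 members, passed the fold at 5 against 0 days on the deposited scale, with TMM and after removal of the length trend described below, beside 3.94% of genes that passed all 3.

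**Figure D3:**
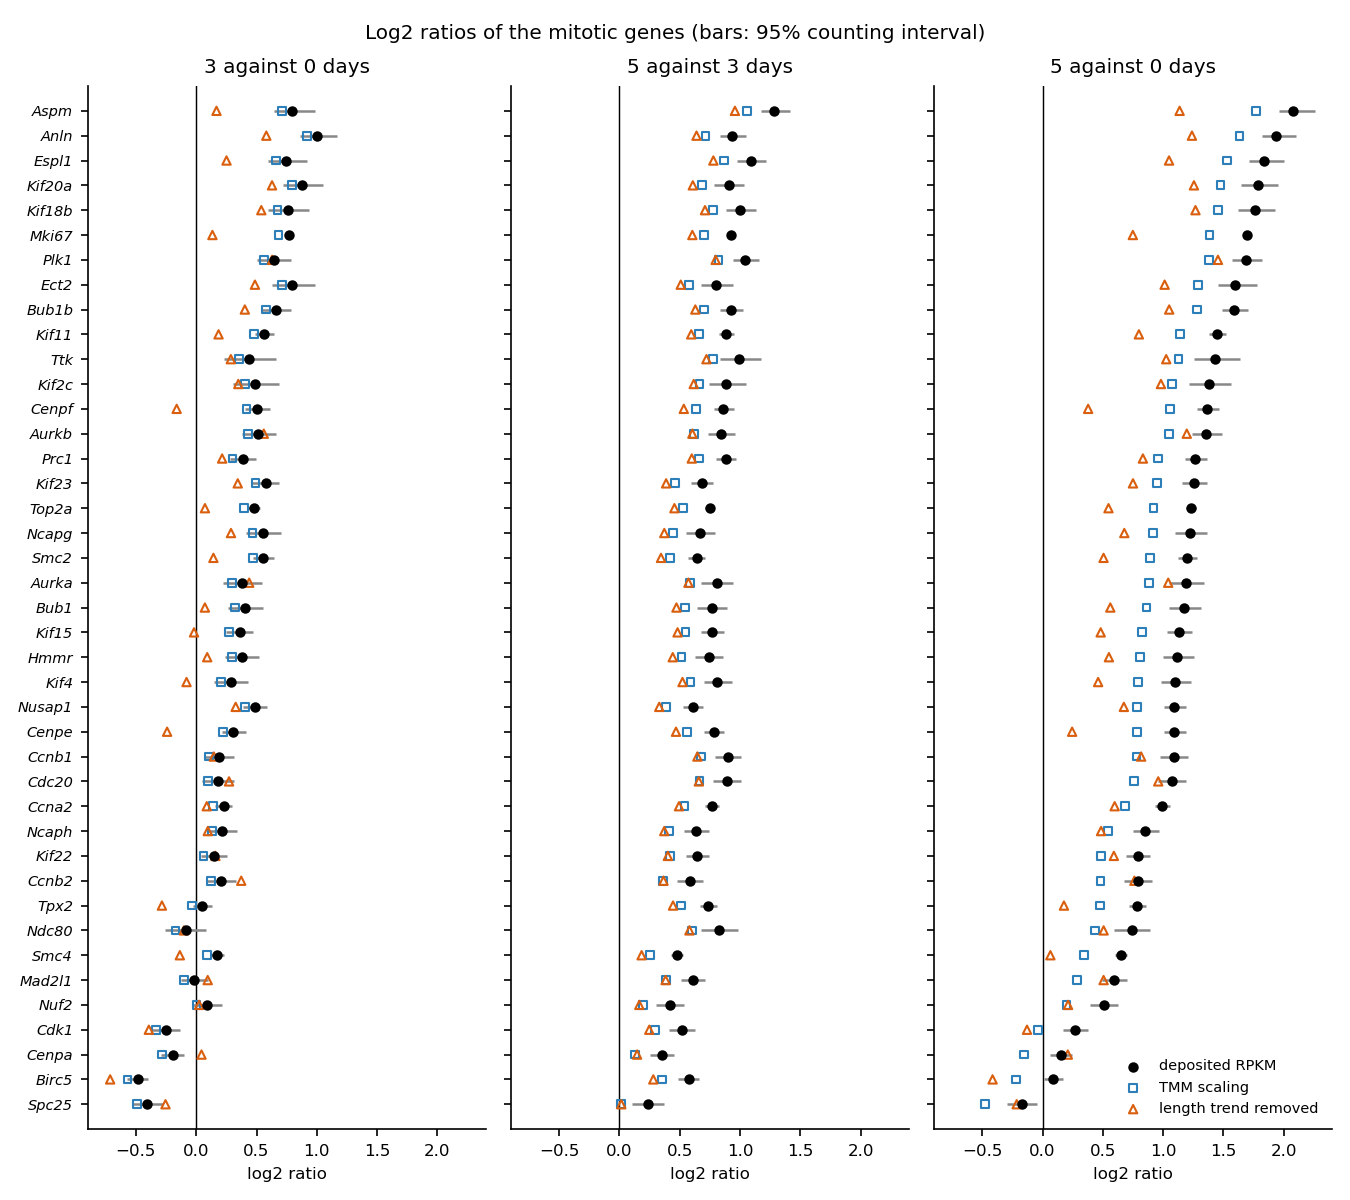
Log2 ratio of RPKM + 0.1 (horizontal axis) for each of 41 members at 3 against 0, 5 against 3 and 5 against 0 days, as deposited (black, with the 95% counting interval), with TMM scaling (blue squares) and after removal of the trend on gene length (orange triangles). At 5 against 3 days the 41 members lie above 0 in each setting, whereas at 5 against 0 days Spc25 lies below 0 in each and Cdk1, Birc5 and Cenpa change side with the setting.

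Of the 6 regulators of mitotic entry, 5 were higher at 5 than at 0 days as deposited, with TMM and after removal of the length trend, Cdk1 being the exception. Ccna2, the A-type cyclin of S phase and mitotic entry, was at 75.5, 88.4 and 150.2 RPKM at 0, 3 and 5 days. Ccnb1, the B-type cyclin that drives entry into mitosis, was at 26.3, 29.9 and 55.9 RPKM, and its log2 ratio at 5 against 0 days was 1.09 (counting interval 0.977 to 1.203). Ccnb2, its paralog, was at 41.6, 47.9 and 71.9 RPKM. For these 3 cyclins the larger step as deposited was that from 3 to 5 days, whereas after removal of the length trend the steps of Ccnb2 were nearly equal (0.37 from 0 to 3 and 0.37 from 3 to 5 days). Cdk1, the kinase these cyclins activate, was at 31.6 RPKM at 0 days, 26.5 RPKM at 3 days and 38.1 RPKM at 5 days. Its log2 ratio at 5 against 0 days was 0.27 as deposited, but -0.04 with TMM and -0.13 after removal of the length trend, so its direction over 5 days was not fixed by these data. Plk1, a kinase of centrosome maturation and mitotic exit, was at 19.4, 30.3 and 62.6 RPKM, a log2 ratio of 1.69 at 5 against 0 days (1.57 to 1.82). Aurka, the centrosomal Aurora kinase, was at 19.3, 25.2 and 44.2 RPKM. Within a library, where no scaling enters, the level of Plk1 relative to Cdk1 was 0.613, 1.14 and 1.64 at 0, 3 and 5 days, and that of Ccnb1 relative to Cdk1 was 0.832, 1.13 and 1.47. Plk1 and Ccnb1 thus stood below Cdk1 at 0 days and above it at 3 and 5 days.

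Among genes of the spindle checkpoint and of anaphase onset, 5 of 6 were at least 2-fold higher at 5 than at 0 days as deposited (15.5% of all genes were) and 3 of 6 with TMM (7.24% of genes). Bub1b, which encodes the checkpoint protein BubR1, was at 16.6, 26.3 and 50.03 RPKM at 0, 3 and 5 days, a log2 ratio of 1.59 at 5 against 0 days (1.49 to 1.70). Bub1, a kinetochore kinase of the same checkpoint, was at 9.82, 13.0 and 22.2 RPKM. Ttk, the kinase (Mps1) that starts checkpoint signalling, was at 6.92, 9.41 and 18.9 RPKM. Each of these 3 was lowest at 0 days and highest at 5 days. Mad2l1, which encodes the Cdc20 inhibitor Mad2, was nearly level between 0 and 3 days, at 48.9 and 48.4 RPKM, and was at 73.9 RPKM at 5 days. The level of Bub1b relative to Mad2l1 was 0.338, 0.543 and 0.677. Cdc20, the activator that the checkpoint holds back, was at 31.4, 35.6 and 66.0 RPKM. Espl1, which encodes separase, the protease that cuts cohesin, was the lowest of the group, at 4.87, 8.23 and 17.6 RPKM, with a log2 ratio of 1.83 at 5 against 0 days as deposited and 1.05 after removal of the length trend.

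The chromosomal passenger complex, which corrects faulty attachments and later acts at the midzone, was represented by a pair of members that went apart. Aurkb, its kinase, was at 23.3, 33.3 and 59.9 RPKM at 0, 3 and 5 days, a log2 ratio of 1.36 at 5 against 0 days (1.24 to 1.49). Birc5, which encodes its subunit survivin, was at 47.7, 34.0 and 50.8 RPKM. The log2 ratio of Birc5 at 3 against 0 days was -0.49 (-0.58 to -0.40), the lowest of all members. At 5 against 0 days it was 0.09 as deposited, -0.22 with TMM and -0.41 after removal of the length trend. The level of Aurkb relative to Birc5 was 0.489, 0.979 and 1.18 in the 3 libraries. The kinase transcript was therefore below its partner's at 0 days, close to it at 3 days and above it at 5 days. Incenp and Cdca8, genes of this complex among the other mitotic genes, were higher at 5 days, as Aurkb was. Their log2 ratios at 5 against 0 days were 1.24 and 1.21 as deposited, 0.94 and 0.90 with TMM, and 0.77 and 1.16 after removal of the length trend. The Birc5 window printed above held no match to any of the 3 motifs, and no Aurkb window was at hand.

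Genes of the centromere and kinetochore had the smallest median among the roles with at least 4 members, at 0.62 for 5 against 0 days (0.32 with TMM and 0.23 after removal of the length trend), and were divided at 3 days, with 3 higher and 3 lower. Cenpa, the histone H3 variant of centromeres, was at 88.7, 77.4 and 98.9 RPKM. Its log2 ratio at 5 against 0 days was 0.16 as deposited and -0.15 with TMM, and at 3 against 0 days it was -0.20 as deposited and 0.04 after removal of the length trend. Spc25, a subunit of the Ndc80 complex that grips microtubules, was at 46.2, 34.8 and 41.1 RPKM. Its log2 ratio at 5 against 0 days was -0.17 as deposited (-0.29 to -0.05), -0.48 with TMM and -0.22 after removal of the length trend. On the deposited scale no other member was below its 0-day level at 5 days, whereas Birc5 and Cdk1 were so with TMM and without the length trend, and Cenpa with TMM. Other subunits of that complex differed from it. Ndc80 was at 17.5, 16.4 and 29.3 RPKM, and Nuf2 at 27.9, 29.7 and 39.7 RPKM. The level of Spc25 relative to Ndc80 was 2.64, 2.12 and 1.40 at 0, 3 and 5 days, and that of Ndc80 relative to Nuf2 was 0.625, 0.554 and 0.736. Cenpe, a kinetochore motor, was at 12.4, 15.4 and 26.5 RPKM, and Cenpf, a large protein of the outer kinetochore, at 7.29, 10.4 and 18.9 RPKM. Both were higher at 3 than at 0 days as deposited, by log2 ratios of 0.31 and 0.50, but lower after removal of the length trend (-0.24 and -0.16), and both are long genes, of 7813 and 11130 bases.

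All 6 kinesin motors of the spindle were higher at 3 and at 5 than at 0 days as deposited and with TMM, although after removal of the length trend Kif15 and Kif4 were at -0.02 and -0.08 at 3 against 0 days. Kif11, the motor that pushes the spindle poles apart, was the most abundant by mean together with Kif22, at 29.99, 44.4 and 82.0 RPKM. Its log2 ratio at 5 against 0 days was 1.45 (1.38 to 1.52), 1.14 with TMM and 0.80 after removal of the length trend. Kif15, which shares this task, was at 15.3, 19.6 and 33.6 RPKM. Kif18b, which acts on astral microtubules, had the largest ratio of the motors, at 8.90, 15.1 and 30.4 RPKM and 1.76 at 5 against 0 days (1.62 to 1.92). Kif2c, a microtubule depolymerase of the centromere, was at 8.82, 12.4 and 23.1 RPKM. The chromokinesins carry chromosome arms. Kif4 was at 10.2, 12.4 and 21.9 RPKM, and Kif22 at 40.9, 45.3 and 70.8 RPKM, and their log2 ratios at 5 against 0 days were 1.099 and 0.79 as deposited but 0.46 and 0.59 after removal of the length trend.

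Of the spindle assembly factors, Aspm had the largest log2 ratio of all members at 5 against 0 days as deposited and with TMM, but not after removal of the length trend, where Plk1 was highest at 1.45. Aspm, a protein of the spindle poles, was at 2.98 RPKM at 0 days, 5.23 RPKM at 3 days and 12.8 RPKM at 5 days, from 456, 782 and 1966 reads. This was a log2 ratio of 2.07 (1.96 to 2.26), and 4.31-fold without the added 0.1 RPKM. The log2 ratio was 1.77 with TMM and 1.14 after removal of the length trend. Aspm is at chr1:139454772-139494091 in GRCm38, on the plus strand, and its length in the tables is 9866 bases. Tpx2, which activates Aurora A on microtubules, was nearly level between 0 and 3 days, at 37.2 and 38.5 RPKM, and was at 64.2 RPKM at 5 days. Nusap1, which bundles spindle microtubules, was at 32.4, 45.5 and 69.4 RPKM. Hmmr, a spindle pole protein also known as a hyaluronan receptor, was at 12.03, 15.7 and 26.2 RPKM. In this group the 5-day library was thus the highest for each gene.

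Among the 5 most abundant members at 0 days and at 5 days, Mki67, Top2a and Smc4 are genes of chromosome structure. Mki67, which encodes the Ki-67 protein that coats mitotic chromosomes and marks dividing cells, was at 67.3, 115 and 218 RPKM at 0, 3 and 5 days, from 10549, 17522 and 34137 reads. Its level at 5 days stood at the 98.2 percentile of the genes with reads in that library, compared with the 92.7 percentile of those with reads at 0 days. The log2 ratio of Mki67 at 5 against 0 days was 1.69 as deposited (1.66 to 1.73) and 0.75 after removal of the length trend, its length being 10098 bases. Top2a, the topoisomerase that untangles sister chromatids, was at 81.2, 113 and 190.5 RPKM, a log2 ratio of 1.23 (1.19 to 1.27). This ratio was 0.92 with TMM and 0.55 after removal of the length trend. Condensin subunits were higher at 5 than at 0 days too. Smc2 was at 21.7, 32.0 and 49.99 RPKM and Ncapg at 11.4, 16.8 and 26.8 RPKM. Ncaph was at 25.3, 29.4 and 45.7 RPKM. Smc4, the partner of Smc2 in the condensin core, was at 84.2, 94.9 and 132 RPKM and had the smallest ratio of the group, 0.65 at 5 against 0 days as deposited and 0.06 after removal of the length trend. The level of Smc2 relative to Smc4 was 0.258, 0.337 and 0.378.

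Genes of cytokinesis had the largest median of the roles, 0.79 at 3 and 1.60 at 5 against 0 days, and all 5 measured above the floor were at least 2-fold higher at 5 days as deposited, beside 15.5% of all genes. With TMM 3 of 5 passed this fold, beside 7.24% of genes, and 3 of 5 after removal of the length trend, beside 5.05%. Anln, which encodes anillin, a scaffold of the contractile ring, was at 6.16, 12.4 and 23.9 RPKM. Its log2 ratio was 1.00 at 3 days (0.86 to 1.17) and 1.94 at 5 days (1.82 to 2.10), the latter 3.88-fold without the added 0.1 RPKM. After removal of the length trend the log2 ratios of Anln were 0.58 and 1.24. Kif20a, a motor that brings regulators to the central spindle, was at 8.21, 15.2 and 28.5 RPKM, a log2 ratio of 1.78 at 5 days. Ect2, the exchange factor that switches on RhoA at the cleavage site, was at 6.53, 11.4 and 19.96 RPKM. These 3 genes were among the lowest members at 0 days. Kif23, the motor subunit of centralspindlin, was at 20.5, 30.6 and 49.1 RPKM, and Prc1, which bundles the central spindle, at 28.2, 36.9 and 68.0 RPKM. The median of the 5 genes at 5 against 0 days was 1.29 with TMM and 1.01 after removal of the length trend. The checkpoint and anaphase genes had 0.99 in each of these settings, so without the length trend the medians were nearly equal. At 3 against 0 days the cytokinesis median was 0.71 with TMM and 0.49 after removal of the length trend. The level of Anln relative to Spc25 was 0.133, 0.357 and 0.582 at 0, 3 and 5 days, so Anln came closer to Spc25 at each later time point.

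The members that were lower at 3 than at 0 days came from several roles. Cdk1, Mad2l1, Birc5, Cenpa, Ndc80 and Spc25 were lower at 3 than at 0 days as deposited, while 35 of 41 members (85.4%) had levels in the order of the time points, compared with 44.1% of all genes, and 34 (82.9%) with TMM, compared with 29.5%. The 3-day library enters both steps of this order. The counting intervals of Mad2l1 and Ndc80 at 3 against 0 days held 0, as did those of Nuf2 and Tpx2. Members that were low at 0 days tended to have the larger log2 ratio from 3 to 5 days. Spearman's rho between the 0-day level and the log2 ratio at 5 against 3 days, which do not share a library, was -0.63 over the 41 members and -0.59 after removal of the length trend. The points share the length and base composition of the genes, and no p is given for them.

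Gene length moved with these ratios. Longer genes had higher log2 ratios at 3 and 5 against 0 days over all 11144 genes, with Spearman's rho of 0.57 and 0.50, and of 0.15 at 5 against 3 days. The same was true within the members, with 0.54, 0.53 and 0.34. The members ranged from 1337 to 11130 bases with a median of 3416 bases, compared with 2696.5 bases for all genes. A lowess trend of the log2 ratio on log10 length was therefore subtracted as an alternative. The median of the members was then 0.15 at 3 against 0 days, 0.67 at 5 against 0 days and 0.49 at 5 against 3 days, with 31, 38 and 41 of 41 higher. At least 2-fold higher were then 11 members at 5 against 0 days, beside 5.05% of all genes, and none at 5 against 3 days, beside 0.659%, or at 3 against 0 days, beside 2.59%. None was 2-fold lower, where 1.81%, 7.61% and 4.93% of genes were at 3 against 0, 5 against 0 and 5 against 3 days. In classes of length, the 7 members under 2000 bases had a median of 0.79 at 5 against 0 days, compared with -0.11 for other genes of this class. The 11 members from 2000 to 3000 bases had 0.99 compared with 0.30, the 12 from 3000 to 4500 bases had 1.24 compared with 0.54, and the 11 of 4500 bases or more had 1.36 compared with 0.75. The members were above the other genes in each class at 5 against 0 days, by 0.61 to 0.90. At 3 against 0 days the distance in the longest class was 0.07, and 0.44 in the shortest. The part of length in these results beyond this subtraction was not tested.

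**Figure D4:**
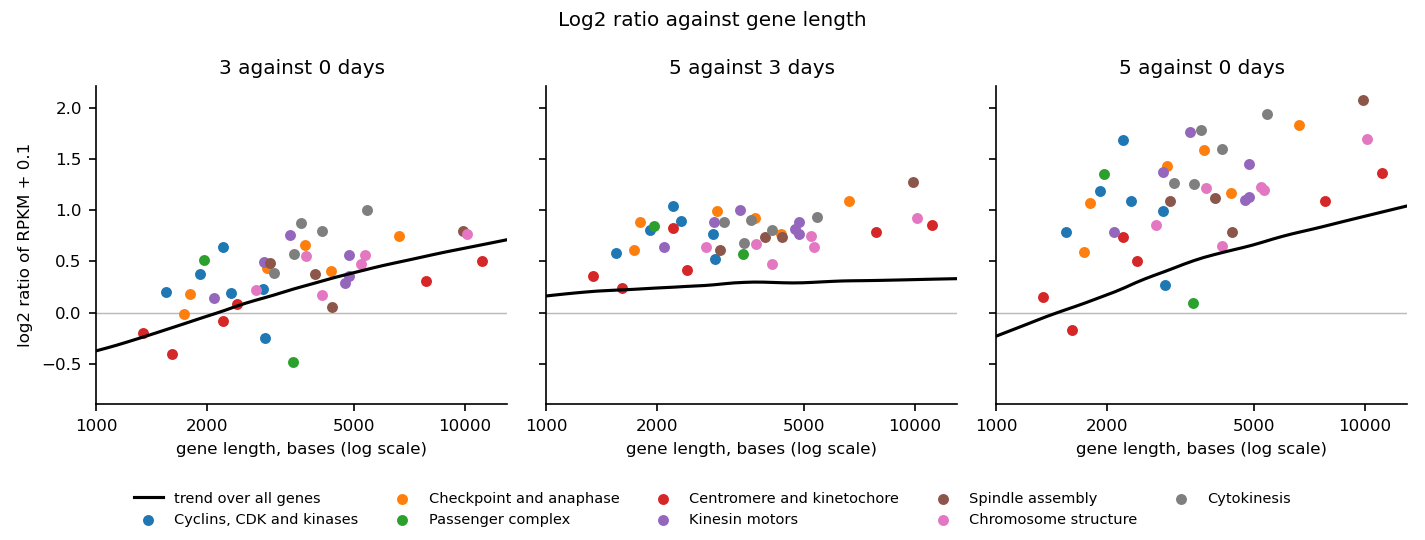
Log2 ratio of RPKM + 0.1 (vertical axis) against gene length in bases (log scale) for 41 members coloured by role, with the lowess trend over 11144 genes as a black line, at 3 against 0, 5 against 3 and 5 against 0 days. The trend climbs with length in the comparisons with 0 days and is nearly flat at 5 against 3 days, where the 41 members lie above it.

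Other genes of the same process were also mostly higher at 5 days. Of 86 further mitotic genes, 85 were in the tables and 84 averaged 1 RPKM or more. Their median log2 ratio at 3 against 0 days was 0.30, with 62 higher and 22 lower (0.22 with TMM and 0.15 after removal of the length trend). At 5 against 0 days it was 0.94, with 77 higher and 7 lower (0.64 with TMM and 0.62 after removal of the length trend). At 5 days 38 of the 84 were at least 2-fold higher and none 2-fold lower, beside 15.5% and 5.91% of all genes. With TMM 21 of the 84 were at least 2-fold higher, beside 7.24% of genes, and 11 of the 84 after removal of the length trend, beside 5.05%. The most abundant were Ube2s and Ube2c, the ubiquitin-conjugating enzymes of the anaphase-promoting complex, Cks2, a Cdk1-binding subunit, Rad21, the kleisin of cohesin, and Cdca3. Ube2s was at 274.7, 205 and 266 RPKM at 0, 3 and 5 days, Ube2c at 147, 129 and 212 RPKM, and Cks2 at 186, 139 and 139 RPKM. Rad21 was at 103, 117 and 164 RPKM, and Cdca3 at 92.5, 82.5 and 118 RPKM. The largest ratios at 5 against 0 days as deposited were those of Casc5, a kinetochore scaffold, with 2.49, Cit, the citron kinase of cytokinesis, with 2.17, and Foxm1, the transcription factor that binds mitotic promoters, with 2.15. Foxm1 was at 11.1, 23.3 and 49.4 RPKM. The smallest as deposited were those of Pttg1, which encodes securin, with -0.52, Cks2 with -0.42 and Cenph, a kinetochore subunit, with -0.35, and the value of Cks2 was 0.04 after removal of the length trend. Pttg1, the inhibitor of separase, was at 69.8, 47.3 and 48.7 RPKM, whereas Espl1, separase itself, was at 4.87, 8.23 and 17.6 RPKM.

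Compared with DNA replication genes, which act earlier in the cell cycle, the members had the higher medians. The 44 measured replication genes had a median log2 ratio of -0.06 at 3 against 0 days, with 19 higher and 25 lower, while the members had 0.39, and after removal of the length trend these medians were -0.13 and 0.15. From 3 to 5 days the medians were closer, 0.68 for replication genes with 44 of 44 higher, and 0.78 for the members. At 5 against 0 days the replication genes had a median of 0.67 as deposited, 0.36 with TMM and 0.30 after removal of the length trend, compared with 1.17, 0.86 and 0.67 for the members, and the replication genes are shorter, with a median of 2434 bases. Pcna, the sliding clamp, was at 332, 255 and 337 RPKM, and Mcm7, a subunit of the replicative helicase, at 114, 96.1 and 151 RPKM. Mcm6 was at 70.4, 70.3 and 122 RPKM and Mcm3 at 70.5, 66.8 and 112 RPKM. Rrm2, a subunit of ribonucleotide reductase, was at 81.1, 91.7 and 161 RPKM. The summed RPKM of the members relative to that of the replication genes was 0.749 at 0 days, 0.988 at 3 days and 1.05 at 5 days. No test of this difference between lists was made, since there is 1 library per time point.

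Genes of G1 and of cell cycle arrest had a median of 0.10 at 5 against 0 days (-0.21 with TMM), with 10 of 17 higher and 7 lower. With TMM 7 were higher and 10 lower. Over all 11144 genes, 7528 were higher as deposited and 5616 with TMM. As deposited 4 were at least 2-fold higher, beside 15.5% of all genes, and 2 at least 2-fold lower, beside 5.91%. The 4 were Rbl1, Cdkn2c, Rbl2 and Cdk6, with log2 ratios of 1.61, 1.39, 1.07 and 1.04, named after their values were seen. With TMM 2 genes passed the fold upward and 3 downward, beside 7.24% and 9.96% of genes, and after removal of the length trend 1 and 3, beside 5.05% and 7.61%, Cdkn1c being the added lower gene. The 2 lower genes as deposited were Btg1 and Btg2, antiproliferative genes and the most abundant of this list. Btg1 was at 442, 306 and 159.6 RPKM and Btg2 at 348, 278 and 104 RPKM, log2 ratios of -1.47 and -1.74 at 5 against 0 days. Ccnd3, a D-type cyclin, was at 221, 239 and 255 RPKM, Cdk4, its kinase partner, at 154, 108 and 164 RPKM, and Cdkn2d, an inhibitor of Cdk4, at 132, 119.8 and 102 RPKM.

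Markers of BM cell types differed between the libraries too, in either direction. Late neutrophil markers made up 10.6%, 8.68% and 3.28% of the reads in the 3 libraries, and their summed level was 150399, 116344 and 41446 RPKM. This list also holds secondary granule genes of earlier neutrophil precursors, among them Ngp, Camp and Lcn2, so it does not mark mature cells alone. The median log2 ratio of the 13 that averaged 1 RPKM or more was -1.98 at 5 against 0 days, and each of the 13 was at least 2-fold lower, beside 5.91% of all genes. After removal of the length trend 12 of the 13 passed, beside 7.61%, with Ngp at -0.95. S100a9, the most abundant, and S100a8, Ngp, Camp and Lcn2 were lower at 5 than at 0 days by log2 ratios of -2.14, -1.88, -1.08, -1.98 and -1.79. Promyelocyte markers, which include primary granule genes and the transcription factor gene Cebpe, summed to 2432, 2327 and 3844 RPKM, and their median at 5 against 0 days was 0.49 over 8 genes as deposited, with 7 higher, and 0.18 with TMM, with 6 higher. Mpo, myeloperoxidase, was at 435, 581 and 1237 RPKM. Elane, Prtn3, Ctsg and Ms4a3 had log2 ratios of 0.35, 0.67, 0.45 and 0.04 at 5 against 0 days as deposited. TMM lowered each of these ratios, that of Ms4a3 to -0.27. Erythroid markers summed to 986, 1076 and 926 RPKM, with a median of 0.12 (-0.19 with TMM). Among the most abundant of them, Car2, Alas2, Slc4a1 and Tfrc had log2 ratios of -0.43, -0.71, 0.67 and 0.12 at 5 against 0 days as deposited, that of Tfrc being -0.19 with TMM. Pro-B and pre-B markers summed to 2427, 1913 and 1775 RPKM, with a median of -0.27 (-0.58 with TMM). Cd79a, Cd79b, Vpreb3 and Pax5 were at -0.64, -0.49, -0.43 and -0.66 as deposited, and Vpreb3 at 0.12 after removal of the length trend. Of the 11 markers, 9 were lower and 2 higher as deposited. The 2 were Rag1 and Rag2, named after their values were seen, at log2 ratios of 1.21 and 1.19, each at least 2-fold higher as deposited (15.5% of all genes) but not with TMM (0.90 and 0.88). T and NK cell markers summed to 227, 128 and 152 RPKM, with a median of -0.53 (-0.83 with TMM) and 12 of 15 lower, and Cd2, Gzma, Cd4, Lck and Cd8b1 were at -0.77, -0.64, -0.07, -0.19 and -0.85. No listed marker found in the tables was at 0 in any library. The share of reads in the 100 genes with the highest mean level was 24.8%, 19.6% and 13.5% at 0, 3 and 5 days, and this share moved against that of the members. The part of cell composition and of the most abundant transcripts in the levels of the members was not tested.

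**Figure D5:**
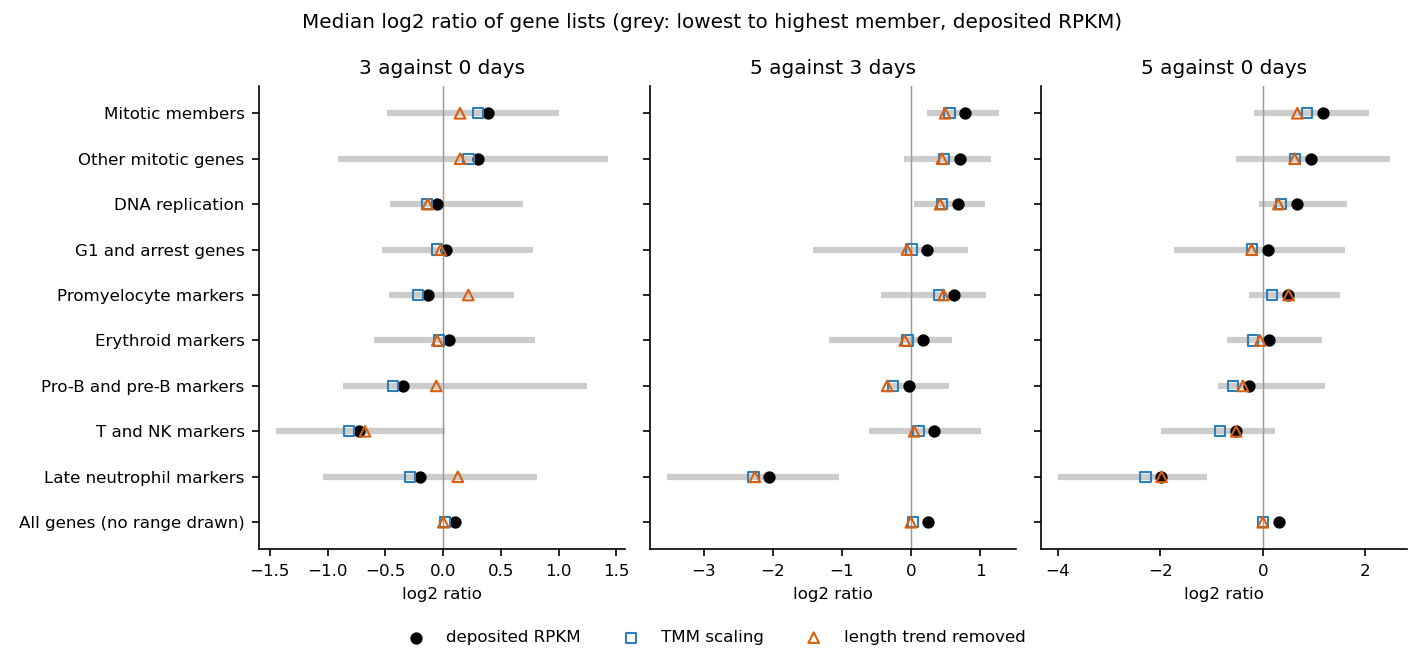
Median log2 ratio of RPKM + 0.1 (horizontal axis) of each gene list as deposited (black circles), with TMM scaling (blue squares) and after removal of the length trend (orange triangles), with the range of single genes as deposited in grey, for the 3 pairs of time points. The mitotic members lie to the right of all genes in each panel, and late neutrophil markers lie near -2 in the comparisons with the 5-day library.

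The members with and without the CHR letters in their window were both higher at 5 days. The 28 with TTTGAA had a median log2 ratio of 1.24 at 5 against 0 days and the 8 without had 0.97, and after removal of the length trend these medians were 0.76 and 0.50. No test of this difference was made. Of the 4 members with the smallest ratios as deposited, Spc25, Cdk1 and Cenpa had TTTGAA in their window and Birc5 had none of the motifs, while the letters were also present in the windows of Aspm, Anln and Espl1, which had the largest as deposited. After removal of the length trend neither set held, with Smc4 and Tpx2 below Cenpa and Plk1 above Aspm.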

How the data were processed

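The authors sequenced RNA of flushed mouse BM cells in 1 library at each of 3 times of LECT2 treatment (0, 3 and 5 days), with 15146983 to 15523952 reads on genes. They deposited whole read counts and RPKM per gene, quantified with Cufflinks per the methods. The aligner is not given in the sources used here, and the processing notes of the submitters name build mm8, so positions and promoters (GENCODE M21 and RefSeq, GRCm38) were matched by symbol only. The authors' own log2 ratios, P values, false discovery rates and direction calls were not used.

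Of the 17559 rows, the most abundant was used for each symbol. Log2 ratios used RPKM plus 0.1, and 3 reads or fewer were the floor. Medians used genes averaging 1 RPKM or more, and 2-fold counts those reaching 1 RPKM in either library. Alternatives were TMM (edgeR 4.0.16), median-of-ratios factors (DESeq2 1.42.0), scaling without the 100 highest genes, a removed length trend (lowess, span 0.3 or 0.5, statsmodels 0.14.6), other pseudocounts, minimums and folds, and summed rows. The steps were tested on simulated data. Besides the 42 members, the 5 most abundant genes of each other list and the 3 highest and 3 lowest other mitotic genes at 5 days are named, except 2 marker genes that are not reported here. Members and lists were chosen with earlier results of these data known.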

Additional observations from a re-analysis of the deposited data

How the results depend on the processing

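No paired analysis was possible because there is 1 library per time point. The median log2 ratio of the members stayed above 0 under every alternative run. At 5 against 0 days it was 0.86 with TMM, 0.87 with median-of-ratios factors, 0.97 without the 100 highest genes and 0.67 after removal of the length trend with either span. At 5 against 3 days these values were 0.56, 0.57, 0.68 and 0.49, and at 3 against 0 days the median without the length trend was 0.15. The members at least 2-fold higher at 5 against 0 days fell from 28 (beside 15.5% of genes) to 14 with TMM (7.24%) and with median-of-ratios factors (7.46%). They were 18 without the 100 highest genes (9.69%) and 11 after removal of the length trend (5.05%). At 5 against 3 days 4 (beside 1.95% of genes) became 1 under the first 3 scalings (0.651%, 0.668% and 1.1%). The count was 0 after removal of the length trend (0.659%) and 34 at a fold of 1.5 (17.3%). At 3 against 0 days 1 (beside 4.08% of genes) became 0 under each of these scalings (2.59% to 3.12%) and with a pseudocount of 1 (1.68%), and 9 at a fold of 1.5 (16.4%).

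Single genes whose counting interval excluded 0 as deposited changed direction as follows. At 5 against 0 days Cdk1 was at -0.038 with TMM, -0.027 with median-of-ratios factors and -0.13 without the length trend. Birc5 was at -0.22, -0.21 and -0.41 under the same settings and at -0.11 without the 100 highest genes, and Cenpa at -0.15 with TMM, -0.14 with median-of-ratios factors and -0.046 without those genes. At 3 against 0 days, without the length trend, Cenpa was at 0.044 (0.041 at the wider span), Cenpe at -0.24, Cenpf at -0.16 (-0.17), Kif15 at -0.018 (-0.0154), Kif4 at -0.080 (-0.077) and Smc4 at -0.14 (-0.13). Of the genes whose interval held 0 at 3 against 0 days, Tpx2 (0.05 as deposited) was at -0.034 with TMM, -0.029 with median-of-ratios factors, -0.045 without the 100 highest genes and -0.28 without the length trend, Mad2l1 (-0.016) was at 0.095 without the length trend, and Nuf2 (0.09) was at -0.0092 without the 100 highest genes. The alternatives rescale or detrend the same counts, and the cause of the differences between them was not tested. Without replicates, a difference between libraries cannot be set against the spread between mice.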
